A study of Homo sapiens with 24 samples.

Results

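Transcripts of 39 genes of the NRF2 antioxidant response, of iron handling and of ferroptosis were followed in H1299 cell lines with and without Δ133p53 isoforms. The genes were listed by name for their roles, with earlier results of these data known. All 39 were found by symbol among the 60563 genes of the count table. Of them, 38 entered the tests, among 18295 genes with enough reads. H1299 is an established non-small cell lung cancer line that is p53 null. The samples were poly(A) RNA libraries from stable lines that carried either the empty vector (control, 4 libraries) or a plasmid for 1 isoform: Δ133p53α in lines Δ133p53α1, Δ133p53α2 and Δ133p53α8 (4 libraries each), and Δ133p53β in lines Δ133p53β5 (3 libraries with a settled line) and Δ133p53β10 (4 libraries). No other treatment or time point was labelled, each Δ133p53 line (α1, α2, α8, β5 and β10 for short) is 1 clone, and all lines share the p53 null background. A further Δ133p53β library, whose line differed between its title and the count table, is given as the Δ133p53β library of unsettled line and entered no comparison between lines. The labels do not say that replicates came from separate cultures, so p-values measure the spread between these libraries only.

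NRF2, encoded by NFE2L2, is a transcription factor that KEAP1 holds in check by sending it for degradation. Under oxidative or electrophilic stress it escapes KEAP1, pairs with small MAF proteins and binds antioxidant response elements beside genes for glutathione synthesis, thioredoxin recycling, NADPH supply, quinone reduction and ferritin. Ferroptosis is a form of cell death driven by iron and by peroxidised membrane lipids, and ferritin, GPX4 and AIFM2 (also named FSP1) act against it whereas ACSL4 and iron uptake through the transferrin receptor feed it. Much of the control of NRF2, of ferritin and of the transferrin receptor is exerted on protein stability or translation, which these transcript counts do not measure.

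The libraries held 21531599 to 25381731 counted reads each. KRT8 and KRT18, keratins of simple epithelia, were abundant, whereas the epithelial adhesion genes EPCAM and CDH1 had at most 5 and 1 reads in any library; PTPRC and CD3E, of leukocytes, had 0. The libraries split into a set of 12 whose deviations rose with gene length (rank correlation across genes 0.182 to 0.299, called the positive set here) and a set of 12 in which they fell with it (-0.265 to -0.114, the negative set). The sets were unevenly spread over the lines, with 3 of 4 control, Δ133p53α2 and Δ133p53α8 libraries in the positive set against 1 of 4 Δ133p53α1, 1 of 4 Δ133p53β10 and 1 of 3 Δ133p53β5 libraries. Nothing in the labels names a batch, so the main results below are also given with the set as a term in the fit or within the set; what the sets are was not tested.

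Antioxidant response elements were looked for in the reference sequence before these genes. The antioxidant response element core, spelled TGACNNNGC and searched on both strands, was present in the 250 bases before the RefSeq start of 5 of the 32 members that had a promoter entry (15.6%), beside 10.9% of all 35116 promoter entries. The matching members were AIFM2, ME1, GCLM, TXNRD1 and PGD. AIFM2 and ME1 are shown because both hold the letters TGACTCAGC, on opposite strands, and both were called against control. AIFM2 was called higher in Δ133p53α1 and Δ133p53β10, and ME1 lower in Δ133p53α1. GCLM and TXNRD1 are shown because they hold other forms of the core and did not pass the test in any line. PGD, called in no line either, is not shown. This choice followed the test results, and a link between spelling and change was not tested. The letters TGACTCA, which overlap the first part of that core, also occurred before OSGIN1 and in 4.2% of all entries. Each sequence is from RefSeq, build GRCh38.p14, read 5′ to 3′ on the strand of the gene, with the element in capitals. A match is a description of these letters and not of binding.
AIFM2, chr10:70132828-70132857, minus strand: cagcacgagtGCTGAGTCAcgccccgcccg
ME1, chr6:83431109-83431228, minus strand: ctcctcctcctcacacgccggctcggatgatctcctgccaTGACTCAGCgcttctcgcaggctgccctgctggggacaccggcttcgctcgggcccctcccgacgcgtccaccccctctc
GCLM, chr1:93909445-93909474, minus strand: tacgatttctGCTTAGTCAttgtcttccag
TXNRD1, chr12:104215640-104215759, plus strand: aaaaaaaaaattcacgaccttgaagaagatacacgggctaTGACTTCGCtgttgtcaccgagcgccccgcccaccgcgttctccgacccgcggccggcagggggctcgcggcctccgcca
The AIFM2 and GCLM elements end 14 and 26 bases before the RefSeq start and read on the opposite strand. By the GENCODE annotation, the AIFM2 stretch lies within the span of its gene (chr10:70098223-70132934). The GCLM stretch reaches into the span of GCLM (chr1:93885199-93909456). For that reason only 30 bases of each are given. The ME1 and TXNRD1 elements begin 137 and 99 bases before the start and read in the direction of the gene.

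Levels of the 39 genes ranged widely. Per kilobase of merged exon, FTL, the ferritin light chain, was the most abundant with a mean of 3000 CPM per kb (CPM, reads of a gene scaled to library size) over the 24 libraries, followed by PRDX1 (602), a peroxide-reducing enzyme, FTH1 (434.5), the ferritin heavy chain, and TXN (290), thioredoxin. NQO1, a quinone reductase, stood at 148 CPM per kb and GPX4, the lipid peroxide-reducing glutathione peroxidase, at 135. At the other end, AKR1B10 had at most 2 reads in any library and was not tested, AKR1C1 and AKR1C3 lay below 0.1 CPM per kb, and SLC40A1, the iron exporter ferroportin, stood at 0.229 CPM per kb. Merged exon lengths count rare long isoforms (TFRC 17.4 kb, FTL 0.871 kb), so this scale understates genes that have them.

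Calls among the 38 tested members were most numerous in Δ133p53α1. A gene was called where edgeR's quasi-likelihood test gave a Benjamini-Hochberg adjusted p under 0.05, and log2 fold changes are given ± SE. In Δ133p53α1 against control, 6 members were higher (2.11% of all tested genes were called higher) and 2 were lower (2.76%). In Δ133p53α2 and Δ133p53α8 no member was called in either direction (all genes: 2.20% higher and 3.10% lower in Δ133p53α2, 1.93% and 2.55% in Δ133p53α8). At an unadjusted p under 0.05 there were 7 and 5 members, for which no share over all genes is given. DESeq2 called 3 and 2 members in these lines, beside 1425 and 1304 of all 18295 tested genes, which is near the same share. Δ133p53β5 had 1 member higher (3.17%) and none lower (4.81%), and Δ133p53β10 had 3 higher (4.70%) and 1 lower (5.12%). Between the isoforms, 2 members were higher in Δ133p53β (2.16%) and none lower (2.55%). AKR1C3 is the member called in Δ133p53β5 and is among those called in Δ133p53β10 and between the isoforms; it entered the tests only through the Δ133p53β libraries, where it was high, and so had to differ.

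With the added requirement of a log2 fold change of at least 1.5 either way, 5 members passed in α1 (2.59% of all genes), 0 in α2 (2.80%), 0 in α8 (2.50%), 1 in β5 (4.20%), 2 in β10 (4.70%) and 1 between the isoforms (1.40%). The share of members called in Δ133p53α1 was above the background share, and the other line counts lay near it. The members were chosen with earlier results of these data known, so this is a description and not a test of the group.
These counts depended on single libraries. No count over all genes is given for the fits without 1 library, so the member counts that follow have no background. At the adjusted p alone, the 8 calls of Δ133p53α1 became 15 without its replicate 1, the only library of that line in the positive set, 5 without replicate 4, 3 without replicate 2 or 3, and 4 and 3 without control replicates 1 and 3. With the fold change requirement, its 5 became 7 without replicate 1, 3 without replicate 4 or control replicate 2, and 1 without replicate 2, replicate 3, control replicate 1 or control replicate 3. The 4 calls of Δ133p53β10 at the adjusted p alone became 9 without its replicate 1, also the only one of its line in the positive set, and 2 without its replicate 2 or 3 or without control replicate 2 or 3. With the fold change requirement, its 2 became 3 without replicate 1, and 1 without its replicate 2 or 3 or without control replicate 2, 3 or 4.

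With the library set as a term, members called numbered 7 in α1 (6.48% of all genes), 5 in α2 (12.2%), 4 in α8 (10.4%), 4 in β5 (17.5%), 4 in β10 (13.7%) and 5 between the isoforms (11.5%). Only the Δ133p53α1 share stood well above its background on this fit, which is likewise a description of members chosen with earlier results known. The set moved many of the members: within lines, 29 of 38 differed between the sets in 1 direction in all 6 lines (76.3%, against 57.8% of all tested genes), by a median of 0.70 log2 units either way (0.48 over all genes).

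**Figure D1:**
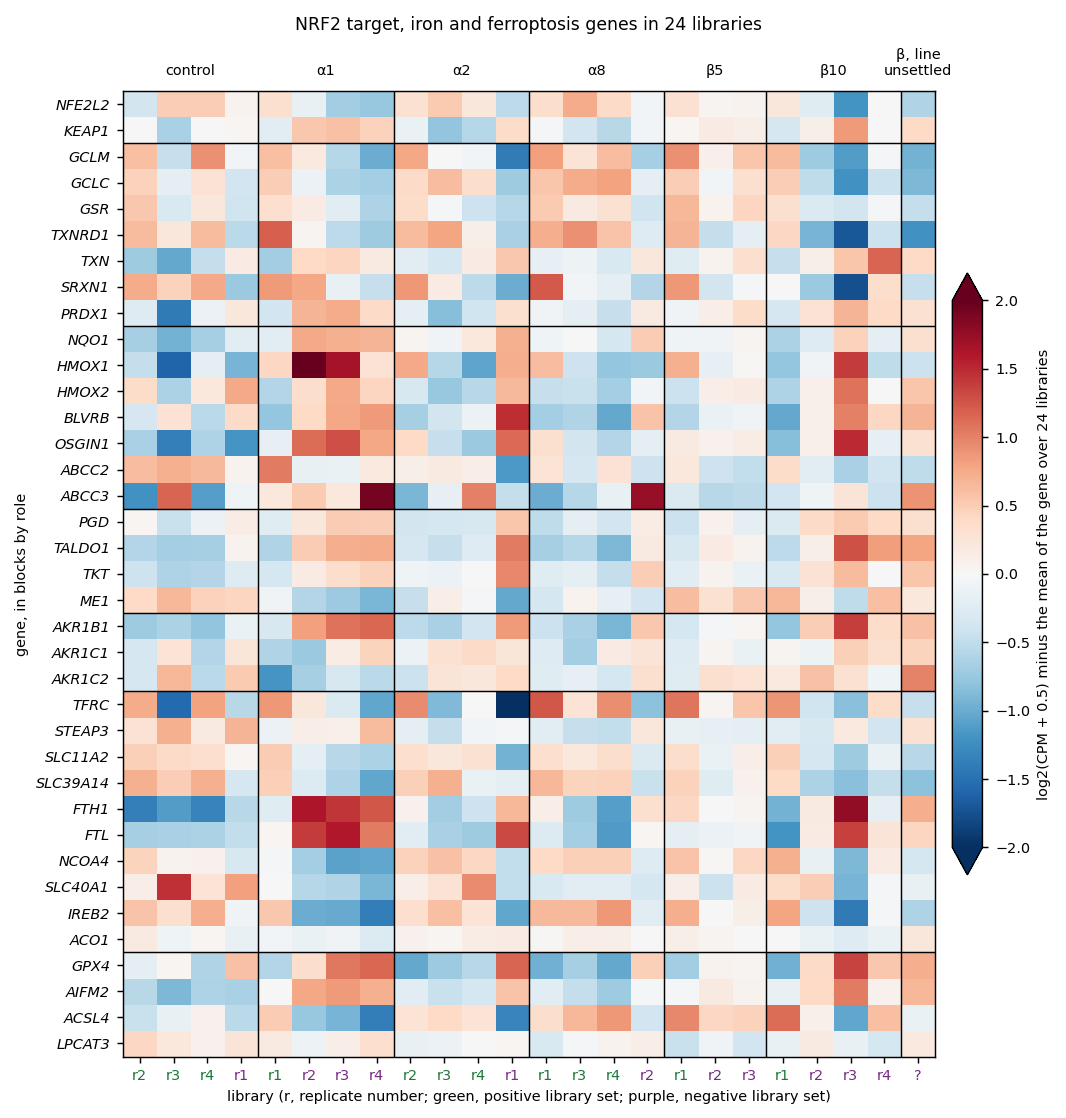
Transcript levels of 37 genes in 24 libraries, as log2(CPM + 0.5) minus the mean of the gene (colour, capped at 2 log2 units), with libraries on the x axis grouped by line and library set and genes on the y axis in blocks by role. AKR1B10 and AKR1C3, near 0 reads in most libraries, are left out; FTH1 is highest in the 3 negative-set libraries of Δ133p53α1 and in Δ133p53β10 replicate 3, while TXNRD1, TFRC and IREB2 are lower in most libraries of the negative set.

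Ferritin transcripts were higher in Δ133p53α1. Ferritin is the shell of heavy (FTH1, chr11:61959718-61967634) and light (FTL, chr19:48965309-48966879) chains that stores iron in a non-reactive form (GRCh38, GENCODE). FTH1 stood at 486, 275, 327 and 282 CPM in control replicates 1 to 4 and at 603, 2195, 1929 and 1680 in those of Δ133p53α1. Every Δ133p53α1 library exceeded every control library, and the only one of them in the positive set was the lowest. In bulk RNA, more transcript in each cell and more cells with the transcript cannot be told apart. FTH1 was 4.68-fold higher on the fit (log2 fold change 2.23 ± 0.50, edgeR adjusted p = 0.0104), and it remained called in all 23 fits that left out 1 library. With the library set as a term the log2 fold change was 1.70 ± 0.41 (edgeR adjusted p = 0.012).

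The same gene was higher in Δ133p53β10, with less agreement between libraries. Its levels there were 371, 810.4, 2426 and 632 CPM, so that replicate 3 stood well above the other three and replicate 1, of the positive set, was the lowest. The log2 fold change was 1.63 ± 0.49 (edgeR adjusted p = 0.0372), fell to 0.81 without replicate 3 (edgeR adjusted p = 0.276), and the call was also lost without replicate 2 or control replicates 2, 3 or 4 (adjusted p 0.051 to 0.102) with limma voom (adjusted p = 0.0845) and with the library set as a term (1.10 ± 0.41, adjusted p = 0.077). In α2 FTH1 stood at 1128, 755, 441 and 537 CPM, in α8 at 779, 889.6, 437 and 330.1, and in β5 at 953, 714 and 744. None of these 3 lines passed the test (log2 fold changes 1.06, 0.83 and 1.23, edgeR adjusted p 0.273, 0.463 and 0.159).

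Within library sets, the order of libraries was also read, a comparison chosen after seeing the data that has 1 control library in the negative set. Each of the 20 Δ133p53 libraries, the one of unsettled line included at 1177 CPM, had more FTH1 than every control library of its own set. The margin was narrow in the positive set, where Δ133p53α8 replicate 4 had 330.1 CPM against a highest control of 327. FTH1 was the only member of which this held, and 2.03% of all tested genes showed it, so the count of 1 in 38 is near the background. Without regard to set, no member was higher in all 20 Δ133p53 libraries than in all 4 controls (0.885% of all genes), and none was lower (1.39%).

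FTL, at 1576, 1395, 1413 and 1427 CPM in the control libraries, hardly varied there (highest over lowest 1.13). It stood at 2278, 5827, 6698 and 4559 CPM in Δ133p53α1, where all 4 libraries exceeded all 4 controls. The log2 fold change was 1.74 ± 0.47 (edgeR adjusted p = 0.0351). This call was lost when Δ133p53α1 replicate 2, 3 or 4 or any 1 of the 4 control libraries was left out (edgeR adjusted p 0.0577 to 0.13), and with the library set as a term (1.09 ± 0.34, edgeR adjusted p = 0.0597).
The other lines ranged widely. Δ133p53α2 had 5546, 1918, 1414 and 1351 CPM and Δ133p53α8 1836, 2282, 1379 and 1007. Δ133p53β5 had 1924, 2050 and 2101 CPM, Δ133p53β10 964, 2473, 5683 and 2639 and the library of unsettled line 2978. In each of Δ133p53α2 and Δ133p53α8 the highest value came from the single negative-set library of the line. No call was made in these 4 lines (edgeR adjusted p 0.156 to 0.952). FTH1 and FTL have processed pseudogenes of near-identical sequence, so their counts are less certain than those of single-copy genes.

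**Figure D2:**
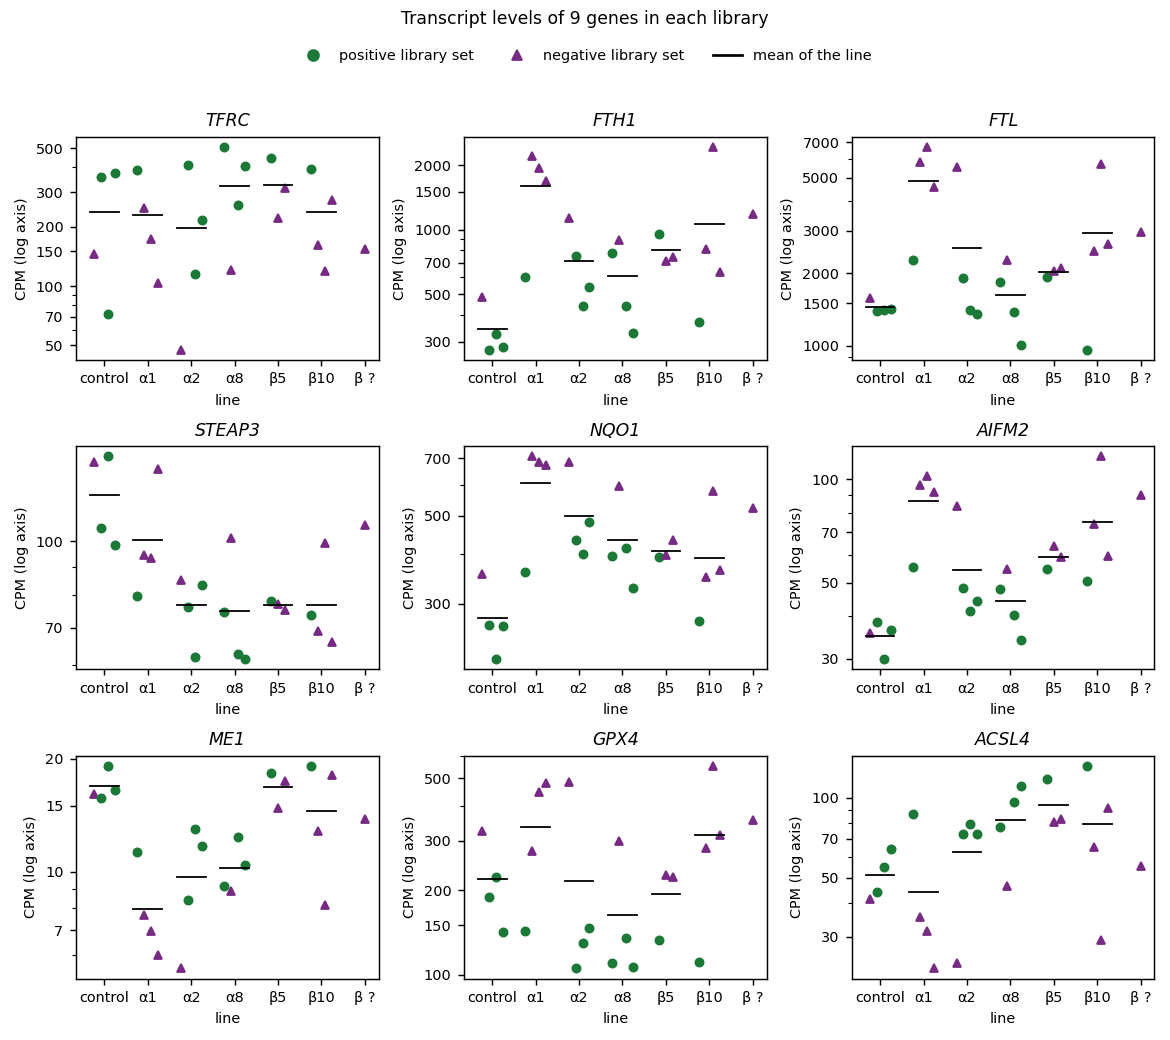
CPM of 9 genes on a log axis, with 1 point per library, lines on the x axis (β ?, the Δ133p53β library of unsettled line), green circles for the positive and purple triangles for the negative library set, and a bar at the mean of each line. TFRC spans 72.2 to 374 CPM among the controls alone, FTH1 and AIFM2 of Δ133p53α1 lie above all controls, and ME1 of the Δ133p53α lines lies below all controls.

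The transferrin receptor transcript was called in no comparison. TFRC (chr3:196012511-196082153) encodes the receptor that brings transferrin-bound iron into cells by endocytosis. It ranged 5.18-fold among the controls alone (145, 357, 72.2 and 374 CPM) and 10.7-fold over all libraries. Levels were 389, 250.1, 174 and 104 CPM in α1, 47.6, 412, 115 and 215 in α2 and 507, 121, 259 and 407 in α8. In Δ133p53β5 they were 446, 222 and 313 CPM, in Δ133p53β10 395, 161, 119 and 275, and 155 in the library of unsettled line. Every line overlapped the controls. Log2 fold changes against control ran from -0.26 to 0.46 with an SE of 0.60 to 0.64 (edgeR adjusted p 0.733 to 0.998), and the isoforms differed by 0.19 ± 0.40 (SE; edgeR adjusted p = 0.883). With the library set as a term the log2 fold changes were 1.02 ± 0.48 in Δ133p53β5 (edgeR adjusted p = 0.154), 0.60 in Δ133p53β10, 0.54 in Δ133p53α1, 0.34 in Δ133p53α8 and -0.43 in Δ133p53α2 (adjusted p 0.426 to 0.689), and the difference between isoforms was 0.66 ± 0.31 (adjusted p = 0.181). These intervals are wide, and a change of TFRC smaller than the spread within lines could not have been seen.

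STEAP3 (chr2:119223831-119265652) is the endosomal reductase that turns the iron delivered by transferrin into its ferrous form. Its fitted level was below the control in every Δ133p53 line, but only 1 line passed edgeR's test on line means. DESeq2 called STEAP3 lower in Δ133p53α2, Δ133p53α8, Δ133p53β5 and Δ133p53β10 (DESeq2 adjusted p 0.018, 0.0103, 0.023 and 0.0136). Limma voom called STEAP3 lower in Δ133p53α8 and Δ133p53β10 (voom adjusted p 0.0454 and 0.042). It is described after its values were seen. Control libraries held 139, 106, 142 and 98.5 CPM, Δ133p53α2 libraries 85.4, 76.1, 62.2 and 83.5 and Δ133p53α8 libraries 74.8, 101, 62.8 and 61.6. Δ133p53β5 libraries held 78.3, 77.3 and 75.3 CPM and Δ133p53β10 libraries 73.9, 69.1, 99.1 and 66.0. Δ133p53α1 was closer to the control at 79.7, 94.5, 93.3 and 135, and the library of unsettled line held 107. Log2 fold changes of -0.69 to -0.65 were seen in 4 lines, but only that of Δ133p53β10 passed (-0.65 ± 0.20, edgeR adjusted p = 0.045, against 0.0576 to 0.0765 in the other three), and that call was kept in 11 of 23 fits that left out 1 library, with an edgeR adjusted p of up to 0.136 without control replicate 3.
STEAP3, with the library set as a term, fell in Δ133p53α2, Δ133p53α8, Δ133p53β5 and Δ133p53β10, by 0.66, 0.70, 0.75 and 0.78 log2 units (edgeR adjusted p 0.0145, 0.0101, 0.00939 and 0.00512). Δ133p53α1 passed on neither fit (-0.27 on line means and -0.41 with the set as a term, edgeR adjusted p 0.371 and 0.198). STEAP3 was the only member below every control library of its own set in all 20 Δ133p53 libraries. Of all genes 3.01% showed this, so the count of 1 in 38 is near the background. The closest was Δ133p53α1 replicate 4 at 134.5 CPM against 139 in control replicate 1.

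SLC40A1 (chr2:189560590-189583758), the only known exporter of iron from cells, was close to the limit of detection and lower in Δ133p53α1. It held 1.88, 0.979, 3.22 and 1.14 CPM in the control libraries against 0.867, 0.407, 0.391 and 0.217 in Δ133p53α1, below all controls. The fitted log2 fold change was -1.90 ± 0.53 (edgeR adjusted p = 0.0411). The call was kept in 13 of 23 fits that left out 1 library, was lost with limma voom (adjusted p = 0.0575) and was lost, among others, without control replicate 3, the highest library of all (-1.47, edgeR adjusted p = 0.168). Levels were 0.457, 0.9896, 1.15 and 2.101 CPM in α2, 0.595, 0.556, 0.675 and 0.668 in α8, 0.982, 0.5004 and 1.01 in β5 and 1.24, 1.40, 0.210 and 0.831 in β10, with 0.720 in the library of unsettled line. Log2 fold changes there ran from -1.53 to -0.61 and none passed with edgeR on line means (edgeR adjusted p 0.109 to 0.624). Δ133p53α8 passed with DESeq2 (DESeq2 adjusted p = 0.0455) and with the library set as a term (-1.56 ± 0.46, edgeR adjusted p = 0.0296).

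The remaining 6 genes of iron handling gave no call in any line. They are the transporters SLC11A2 and SLC39A14, the ferritinophagy receptor NCOA4, which delivers ferritin for breakdown, and the iron sensors IREB2 and ACO1, with TFRC above. ACO1 was the steadiest of all members, with a 1.42-fold range over 24 libraries (46.1 to 65.5 CPM). NCOA4 was lower in the 3 negative-set libraries of Δ133p53α1 (73.7, 55.9 and 56.9 CPM) than in any control (lowest 94.7), but its log2 fold change of -0.73 ± 0.31 did not pass (edgeR adjusted p = 0.151). NCOA4 was, with the library set as a term, higher in Δ133p53β than in Δ133p53α by 0.46 ± 0.13 log2 units (edgeR adjusted p = 0.0227).

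NQO1, HMOX1 and OSGIN1, NRF2 targets of the quinone and heme group, rose in Δ133p53α1, and their levels in the other lines lay between. NQO1 (chr16:69706996-69726668) reduces quinones by transferring electrons in pairs and is among the most used readouts of NRF2. Control libraries held 356, 265, 217 and 263 CPM and Δ133p53α1 libraries 361, 708, 686 and 673. All 4 Δ133p53α1 libraries were above all 4 controls, and replicate 1, the only one in the positive set, was well below the other three. NQO1 was 2.21-fold higher (log2 fold change 1.14 ± 0.26, edgeR adjusted p = 0.0124), and this call was kept in all 23 fits that left out 1 library.
The other Δ133p53α lines were higher than most controls as well, at 684, 433, 400 and 483 CPM in Δ133p53α2 and 396, 597, 416 and 329 in Δ133p53α8. Δ133p53β5 held 393, 398 and 434 CPM, Δ133p53β10 270.4, 349.6, 578 and 366 and the library of unsettled line 522. On line means none of these 4 lines passed with edgeR (log2 fold changes 0.86, 0.66, 0.57 and 0.51, edgeR adjusted p 0.059 to 0.243). DESeq2 called NQO1 higher in Δ133p53α2 (DESeq2 adjusted p = 0.0185). With the library set as a term NQO1 was higher in all 3 Δ133p53α lines, by 0.82, 0.85 and 0.65 log2 units (edgeR adjusted p 0.00472, 0.00128 and 0.0129), and it was 0.49 log2 units lower in Δ133p53β than in Δ133p53α (edgeR adjusted p = 0.00736), where line means gave -0.35 ± 0.18 (edgeR adjusted p = 0.337).

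HMOX1 (chr22:35380361-35394214), the inducible heme oxygenase that frees iron from heme, varied most of these genes. The controls held 38.5, 52.8, 23.95 and 64.8 CPM and Δ133p53α1 98.4, 323, 236 and 90.7, each above every control. The log2 fold change was 2.06 ± 0.55 (edgeR adjusted p = 0.0315) and, with the library set as a term, 1.90 ± 0.57 (edgeR adjusted p = 0.0456). The call was lost without Δ133p53α1 replicate 2 or 3 or control replicate 1, 2 or 3 (edgeR adjusted p 0.0649 to 0.138).
Elsewhere HMOX1 varied within lines and no line passed the test. It stood at 124, 126, 49.5 and 35.4 CPM in α2, at 114, 44.1, 55.5 and 43.2 in α8, at 122, 65.9 and 74.95 in β5 and at 43.0, 70.9, 197 and 52.0 in β10, with 55.0 in the library of unsettled line. All 3 Δ133p53β5 libraries were above all controls, replicates 1 and 2 of Δ133p53α2 were well above its other two, and Δ133p53β10 replicate 3 and Δ133p53α8 replicate 1 were each well above the rest of their lines. The constitutive heme oxygenase HMOX2 and the biliverdin reductase BLVRB were called in no comparison by edgeR, DESeq2 or voom. BLVRA, the other biliverdin reductase and not a member, was called higher in Δ133p53α1 (1.08 ± 0.275, edgeR adjusted p = 0.025) and in no other comparison.

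OSGIN1 (chr16:83931311-83966332), a stress-induced growth inhibitor and NRF2 target, followed HMOX1. It stood at 21.0, 30.5, 18.4 and 31.2 CPM in the controls and at 42.7, 105, 118 and 82.5 in Δ133p53α1, without overlap. The log2 fold change was 1.79 ± 0.45 (edgeR adjusted p = 0.0233), and 1.36 ± 0.42 with the library set as a term, where it missed the threshold (edgeR adjusted p = 0.0565); it was also lost without Δ133p53α1 replicate 2 or 3 or control replicate 1 or 3 (adjusted p 0.0546 to 0.0931).
In α2 OSGIN1 stood at 107, 63.3, 34.98 and 28.6 CPM, in α8 at 60.0, 42.2, 37.3 and 31.9, in β5 at 54.8, 51.3 and 53.2, in β10 at 26.3, 51.8, 137 and 42.8 and in the library of unsettled line at 59.3. All libraries of Δ133p53α8 and Δ133p53β5 were above all controls, yet no line but Δ133p53α1 passed edgeR's test (log2 fold changes 0.76 to 1.35, edgeR adjusted p 0.0577 to 0.465). DESeq2 called OSGIN1 higher in Δ133p53β10 as well (DESeq2 adjusted p = 0.0225). Between the isoforms the log2 difference was -0.04 ± 0.30. The transporters ABCC2 and ABCC3, which pump conjugates out of cells, were called in no line on line means by edgeR, DESeq2 or voom; with the library set as a term ABCC2 was lower in Δ133p53α2 (-0.76 ± 0.20, edgeR adjusted p = 0.0161).

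In Δ133p53α1, the 6 genes called higher (FTH1, FTL, HMOX1, OSGIN1, NQO1 and AIFM2) were each above the controls of their own set in all 4 libraries. So were SRXN1, TKT and AKR1B1, which makes 9 of 38 members (12.6% of all tested genes showed this). ME1, AKR1C2, STEAP3, NCOA4 and SLC40A1, 5 members, lay below the controls of their own set in all 4 libraries (13.2% of all genes). The negative set has a single control library, so this comparison rests on control replicate 1 for 3 of the 4 Δ133p53α1 libraries.

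The regulators and the glutathione and thioredoxin genes, although they include classical NRF2 targets, gave no call. NFE2L2 (chr2:177218667-177392756) stood at 81.4, 59.8, 108 and 108 CPM in the controls, 96.5, 69.5, 47.4 and 45.5 in the α1 line, 53.2, 95.6, 111 and 90.6 in α2 and 98.9, 74.6, 129 and 101 in α8. It stood at 95.8, 80.5 and 81.0 CPM in Δ133p53β5, 90.2, 64.8, 33.5 and 77.5 in Δ133p53β10 and 50.7 in the library of unsettled line. Every line overlapped the controls (log2 fold changes -0.47 to 0.17, edgeR adjusted p 0.301 to 0.982), and with the library set as a term none passed either (-0.24 to 0.17, adjusted p 0.594 to 0.88).
KEAP1 (chr19:10486125-10503558) moved the other way between the library sets. It stood at 80.5, 79.0, 50.1 and 79.3 CPM in the controls, 67.0, 114, 119 and 108 in the α1 line, 102, 71.3, 45.4 and 52.5 in α2 and 76.5, 75.8, 60.2 and 53.1 in α8. In Δ133p53β5 it stood at 80.9, 88.2 and 85.5 CPM, in Δ133p53β10 at 61.9, 85.1, 142 and 79.2 and in the library of unsettled line at 104. No line passed (log2 fold changes -0.12 to 0.50, edgeR adjusted p 0.233 to 0.931), nor with the library set as a term (-0.14 to 0.22, adjusted p 0.608 to 0.935).

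GCLM (chr1:93885199-93909456), the modifier subunit of the enzyme that makes the first step of glutathione synthesis, had 40.04, 63.4, 30.2 and 78.4 CPM in the controls, 63.4, 47.5, 28.0 and 20.8 in the α1 line, 15.4, 71.0, 41.6 and 40.2 in α2 and 73.4, 25.9, 50.2 and 63.8 in α8. It had 78.7, 44.5 and 61.5 CPM in Δ133p53β5, 64.8, 25.2, 18.9 and 40.9 in Δ133p53β10 and 21.3 in the library of unsettled line. All lines overlapped the controls, with log2 fold changes of -0.50 to 0.22 (edgeR adjusted p 0.479 to 0.998). The set as a term gave -0.46 to 0.63 (adjusted p 0.213 to 0.963).
TXNRD1 (chr12:104215779-104350307), thioredoxin reductase of the cytosol, was among the members most unlike between the sets. It had 279, 628, 472 and 624 CPM in the controls, 928, 419, 282 and 247 in the α1 line, 259, 628, 699 and 440.2 in α2 and 670.3, 336, 764 and 599.9 in α8. It had 645, 290 and 355 CPM in Δ133p53β5, 537, 211, 124 and 299 in Δ133p53β10 and 175 in the library of unsettled line. The single positive-set library of Δ133p53α1 was the highest of all 24, and its 3 negative-set libraries lay on both sides of the 279 CPM of the only negative-set control. No line passed (log2 fold changes -0.78 to 0.24, edgeR adjusted p 0.271 to 0.994), nor with the library set as a term (-0.25 to 0.39, adjusted p 0.336 to 0.998), where the value of Δ133p53α1 turned from -0.09 to 0.39 and that of Δ133p53β5 from -0.22 to 0.26.
Of the 7 genes in the glutathione and thioredoxin group, which also holds GCLC, GSR, TXN, SRXN1 and PRDX1, none was called in any of the 6 comparisons by edgeR, with or without the library set as a term. At an unadjusted p under 0.05 there was 1 in Δ133p53α1 and 1 in Δ133p53β10. DESeq2 called 1, in Δ133p53β10, where it called 2856 of all 18295 tested genes. Group medians of the log2 fold change ran from -0.38 to 0.22, beside -0.05 to 0.03 over all tested genes.

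**Figure D3:**
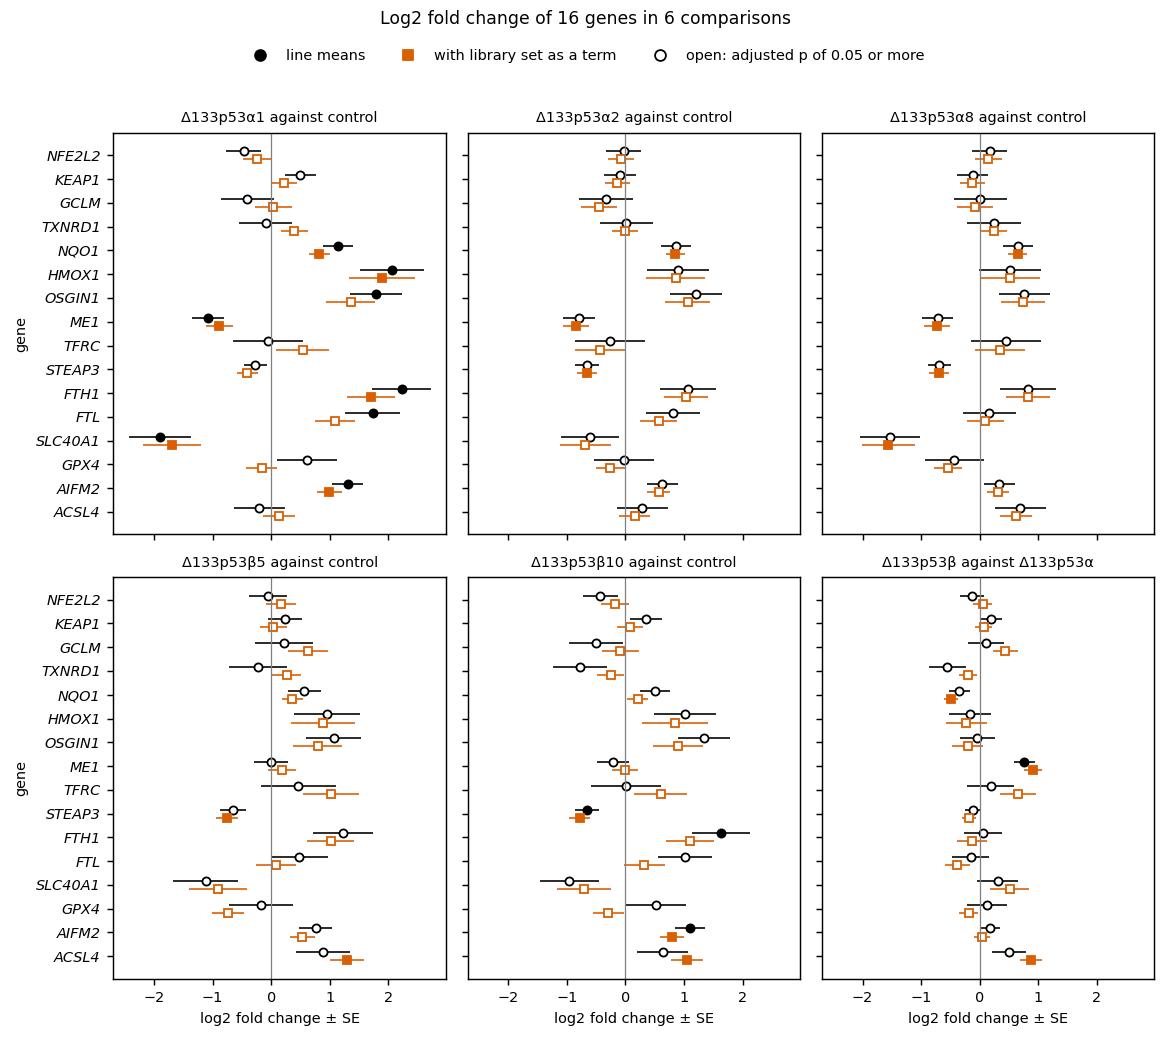
Log2 fold change with its SE (x axis) of 16 genes (y axis) in the 5 comparisons with control and between isoforms, for line means (black circles) and with the library set as a term (orange squares), filled where the edgeR adjusted p was under 0.05. In Δ133p53α1, FTH1, HMOX1, NQO1, AIFM2, ME1 and SLC40A1 are filled in both fits, and between the isoforms ME1 alone of these 16 is; AKR1C3 is left out.

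ME1 differed between the line means of the isoforms, with libraries that overlapped. ME1 (chr6:83210402-83431051) encodes the cytosolic malic enzyme, which makes NADPH while turning malate into pyruvate, and its promoter holds the element printed above. It was steady in the controls (16.1, 15.7, 19.1 and 16.5 CPM) and lower in all 3 Δ133p53α lines, at 11.3, 7.68, 6.98 and 6.03 CPM in α1, 5.54, 8.43, 13.0 and 11.7 in α2 and 9.18, 8.90, 12.4 and 10.4 in α8. Each of the 12 Δ133p53α libraries was below each of the 4 controls. Δ133p53β5, at 18.3, 14.7 and 17.4 CPM, and Δ133p53β10, at 19.1, 12.8, 8.14 and 18.1, overlapped the controls, and the library of unsettled line had 13.8.
ME1 was 1.69-fold higher in Δ133p53β than in Δ133p53α (log2 difference 0.76 ± 0.18, edgeR adjusted p = 0.0137), and this call was kept in all 23 fits that left out 1 library and strengthened with the library set as a term (0.91 ± 0.15, edgeR adjusted p = 0.000325). The 8 Δ133p53β and 12 Δ133p53α libraries still overlapped, since Δ133p53β10 replicates 2 and 3 were below the highest Δ133p53α library; no member was without overlap between the isoforms (0.366% of all genes higher, 0.383% lower), nor within the library sets (1.07% and 1.24%). The test measures spread within lines: over clones, 3 against 2 allow no exact p below 0.1.
Against control ME1 fell in Δ133p53α1 (-1.08 ± 0.27, edgeR adjusted p = 0.0245), a call that was lost without control replicate 3 or Δ133p53α1 replicate 2, 3 or 4 (adjusted p 0.0673 to 0.093). The log2 fold changes of -0.80 and -0.72 in Δ133p53α2 and Δ133p53α8 did not pass with edgeR on line means (edgeR adjusted p 0.1 and 0.165). Both did with the library set as a term (-0.84 and -0.73, edgeR adjusted p 0.0125 and 0.0313). DESeq2 on line means called Δ133p53α2 only of these 2 lines (DESeq2 adjusted p 0.0485 and 0.0881). In Δ133p53β5 and Δ133p53β10 the values were -0.003 and -0.21 (edgeR adjusted p 0.997 and 0.617).
The other 3 genes of NADPH supply, PGD, TALDO1 and TKT of the pentose phosphate pathway, were called in no comparison on line means by edgeR, DESeq2 or voom. TKT was higher in Δ133p53α2 with the library set as a term (0.67 ± 0.16, edgeR adjusted p = 0.00807). All 3 were higher in the negative set in all 6 lines, by a mean of 0.58, 0.99 and 0.59 log2 units.

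AKR1C3 (chr10:5035354-5107686), an aldo-keto reductase of steroid and prostaglandin metabolism, was read only in lines with an isoform. The 4 control libraries held 0 reads. Reads per library were 0, 0, 0 and 4 in α1, 0, 1, 0 and 0 in α2 and 1, 2, 2 and 2 in α8, against 7, 8 and 18 in β5, 18, 25, 20 and 4 in β10 and 39 in the library of unsettled line. All Δ133p53β libraries had 4 reads or more, and 1 of the 12 Δ133p53α libraries reached 4.
A count of 0 allows up to 3 reads per control library, or 0.12 CPM on average. Against that floor AKR1C3 was at least 4.12-fold higher in Δ133p53β5 and at least 6.59-fold higher in Δ133p53β10 (edgeR adjusted p 0.00298 and 0.000625 for the line means), while the mean of no Δ133p53α line exceeded the floor. Between the isoforms edgeR called the gene as well (adjusted p = 0.000341, and 0.000217 with the library set as a term), and the call was kept in all 23 fits that left out 1 library. AKR1C3 passed the filter on low counts only through Δ133p53β, of which 5 libraries had 10 reads or more against 0 control and 0 Δ133p53α libraries, so it had to differ and these tests add nothing to the reads given above. The fitted difference between the isoforms depends on the prior count and is no measure of its size. These are 4 to 39 reads in libraries of 21531599 reads or more, the floor covers counting error only, and with a minimum mean of 1 CPM the gene was not tested at all.
The sister genes AKR1C1 and AKR1C2, with near-identical sequence among which reads could be split, did not share the pattern. AKR1C1 ranged from 0.102 to 0.893 CPM and was called nowhere by edgeR, DESeq2 or voom. AKR1C2 ranged from 0.206 to 2.67 CPM and was lower in Δ133p53α1 with the library set as a term (-1.68 ± 0.39, edgeR adjusted p = 0.00909). On line means it missed the threshold with edgeR (adjusted p = 0.0789) and passed it with DESeq2 (adjusted p = 0.0336). AKR1B1, aldose reductase, was likewise not called by edgeR in Δ133p53α1 (adjusted p = 0.0726) but by DESeq2, higher by 1.32 log2 units (adjusted p = 0.027), and was called in no other line.

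Of the 4 ferroptosis enzymes, AIFM2 rose and GPX4 did not pass. AIFM2 (chr10:70098223-70132934) regenerates coenzyme Q at membranes, where it traps lipid radicals, and carries the element shown above near its start. It was even in the controls (35.7, 38.3, 29.97 and 36.4 CPM) and higher in Δ133p53α1 at 55.6, 96.3, 102 and 92.1. Every Δ133p53α1 library exceeded every control (log2 fold change 1.30 ± 0.27, edgeR adjusted p = 0.00477), which was kept in all 23 fits that left out 1 library and with the library set as a term (1.00 ± 0.21, edgeR adjusted p = 0.0035).
In Δ133p53β10, at 50.6, 74.2, 117 and 59.9 CPM, all libraries were likewise above all controls. The log2 fold change was 1.10 ± 0.26 (edgeR adjusted p = 0.00991), 0.80 ± 0.21 with the library set as a term (adjusted p = 0.0107) and 0.80 without replicate 3, the highest of the line, where the call was lost (adjusted p = 0.057). AIFM2 stood at 54.8, 64.1 and 59.3 CPM in Δ133p53β5, at 83.6, 48.2, 41.2 and 44.2 in Δ133p53α2, at 48.1, 54.7, 40.2 and 34.2 in Δ133p53α8 and at 89.7 in the library of unsettled line, with no call on line means (log2 fold changes 0.76, 0.63 and 0.34, edgeR adjusted p 0.108, 0.218 and 0.657).

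GPX4 (chr19:1103982-1106791), the enzyme that reduces lipid peroxides with glutathione, followed the library sets. It had 326, 190, 223 and 142 CPM in the controls, 143, 277, 447 and 481 in the α1 line, 484, 106, 129.8 and 147 in α2 and 110.2, 300.1, 135 and 106 in α8. It had 133, 227 and 224 CPM in Δ133p53β5, 111, 283, 554 and 314 in Δ133p53β10 and 356 in the library of unsettled line. In every line the negative-set libraries were the higher ones, by 1.34 log2 units on average (0.75 to 1.94 over the 6 lines). No line passed (log2 fold changes -0.43 to 0.61, SE 0.51 to 0.55, edgeR adjusted p 0.415 to 0.993). With the library set as a term none passed either, and the values were below 0 in all 5 lines: they turned from 0.61 to -0.16 in Δ133p53α1 and from 0.52 to -0.29 in Δ133p53β10, and stood at -0.26 in Δ133p53α2, -0.54 in Δ133p53α8 and -0.73 in Δ133p53β5 (adjusted p 0.0659 to 0.759).

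ACSL4 (chrX:109624244-109733403), which loads polyunsaturated fatty acids into the lipids that ferroptosis attacks, ran opposite to GPX4 between the sets, lower in the negative set by 1.05 log2 units on average. It had 41.5, 44.1, 54.7 and 63.8 CPM in the controls, 86.6, 35.6, 31.6 and 22.8 in the α1 line, 23.9, 73.0, 79.5 and 73.1 in α2 and 77.4, 46.4, 96.5 and 110.1 in α8. Δ133p53β5 had 118, 81.0 and 83.3 CPM, all above all controls, Δ133p53β10 had 132, 64.9, 29.2 and 91.5, and the library of unsettled line had 55.1. On line means no line passed (log2 fold changes -0.21 to 0.88, edgeR adjusted p 0.29 to 0.834), and the isoforms differed by 0.50 ± 0.29 (edgeR adjusted p = 0.426).
ACSL4, with the library set as a term, was higher in Δ133p53β5 (1.29 ± 0.29, edgeR adjusted p = 0.00391) and Δ133p53β10 (1.05 ± 0.28, adjusted p = 0.0129), and higher in Δ133p53β than in Δ133p53α (0.87 ± 0.19, adjusted p = 0.00354). The positive-set libraries of Δ133p53β10 and Δ133p53β5 had 132 and 118 CPM, above the 44.1 to 63.8 CPM of the positive-set controls and the 73.0 to 110.1 CPM of the positive-set Δ133p53α libraries. LPCAT3, which inserts such fatty acids into phospholipids, had a 1.83-fold range over all libraries and was lower in Δ133p53β5 with the library set as a term (-0.59 ± 0.16, edgeR adjusted p = 0.014). On line means it missed the threshold with edgeR (adjusted p = 0.0527) and passed it with DESeq2 (-0.56, adjusted p = 0.00406) and voom (-0.55, adjusted p = 0.0469).

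**Figure D4:**
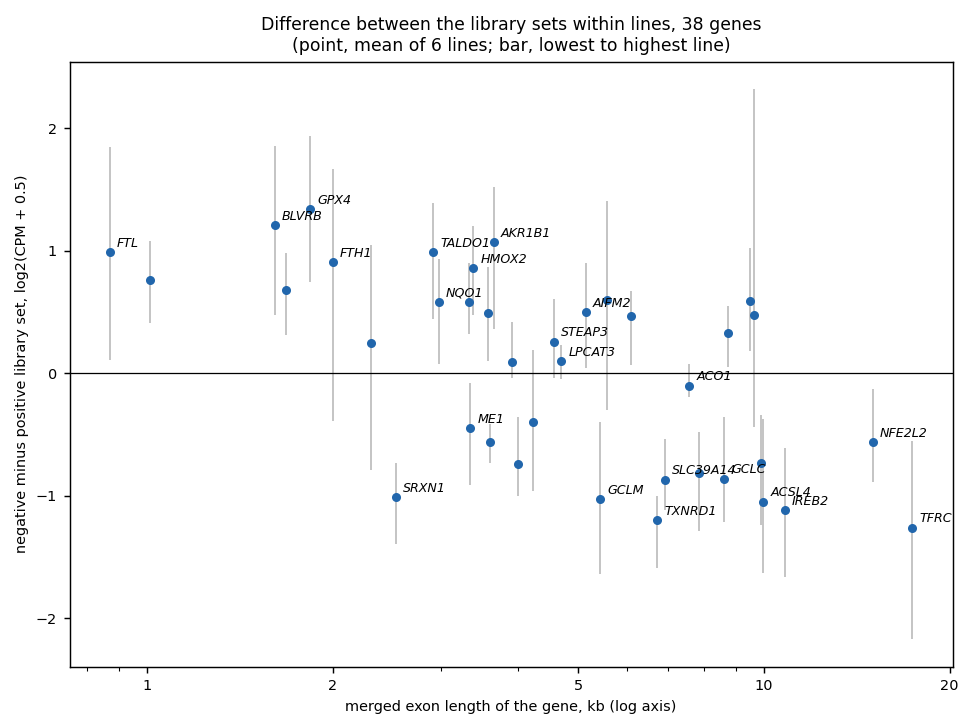
Difference between the negative and the positive library set within lines, in log2(CPM + 0.5) (y axis), against the merged exon length of the gene in kb (x axis, log scale), for 38 genes. Points are means over 6 lines and bars run from the lowest to the highest line; GPX4, BLVRB, FTL and FTH1, of 2.00 kb or less, lie above 0 and TFRC, IREB2 and ACSL4, of 9.97 kb or more, lie below.

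The set difference ran through most roles. Lower in the negative set in all 6 lines were TFRC (-1.26 log2 units), TXNRD1 (-1.20), IREB2 (-1.12), ACSL4 (-1.05), GCLM (-1.03) and SRXN1 (-1.01). Higher in all 6 lines were GPX4 (1.34), BLVRB (1.21), AKR1B1 (1.07), FTL (0.99) and TALDO1 (0.99). A difference of more than 1 log2 unit was seen for 9 of 38 members (23.7%) and for 14.6% of all tested genes. FTH1 was not of 1 direction (-0.39 to 1.67 over the lines, mean 0.91), nor was HMOX1 (-0.79 to 1.05, mean 0.25).

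Control replicate 3 also stood apart in several members within the positive set. It had the lowest TFRC (72.2 CPM), KEAP1 (50.1), PRDX1 (360), HMOX1 (23.95) and NQO1 (217) of the 4 controls and the highest SLC40A1 (3.22) and ABCC3 (7.63). PRDX1 there was the lowest of all 24 libraries, which otherwise ran from 530 to 1614 CPM. Without it the Δ133p53α1 count of called members was 3, as given above.

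Further genes of the same pathways, 75 that are not among the 39 and of which 60 were tested, were read in the same fit. Of all tested genes, 2.11% were called higher and 2.76% lower in Δ133p53α1, 2.20% and 3.10% in α2, and 1.93% and 2.55% in α8. The shares were 3.17% and 4.81% in β5, 4.70% and 5.12% in β10, and 2.16% and 2.55% between the isoforms. DESeq2 called 1771 of the 18295 tested genes in Δ133p53α1 and 1304 in Δ133p53α8. No share over all genes is given for unadjusted p-values. Of 19 tested NRF2 targets, 3 were called higher and 0 lower in Δ133p53α1, 1 and 1 in α2, 0 and 1 in α8, 0 and 3 in β5, and 1 and 2 in β10; between the isoforms it was 0 and 1. Of 19 iron genes, 0 were called higher and 2 lower in Δ133p53α1, 0 and 1 in α2, β5 and β10, 0 and 0 in α8 (1 at an unadjusted p under 0.05, 0 by DESeq2), and 1 and 0 between the isoforms. Of 22 ferroptosis genes, none was called in Δ133p53α1 (6 at an unadjusted p under 0.05, 1 by DESeq2), 1 was higher in each of Δ133p53α2, Δ133p53α8 and Δ133p53β5, 2 were higher and 1 lower in Δ133p53β10, and 1 and 1 between the isoforms. No gene of these lists passed both thresholds in 3 or more lines. At the adjusted p alone 3 genes, named after their values were seen, were called in 4 of the 5 lines. The share of all tested genes called in 4 lines is not given, so this count has no background. Fits with the library set as a term or without single libraries are not given for these 3 genes either. TFR2, the other transferrin receptor, had few reads (20 to 32 in the control and 3 to 24 in the Δ133p53 libraries) and was lower in all but Δ133p53α8 (log2 fold changes -2.80 to -1.31, edgeR adjusted p 0.000677 to 0.0452). ABCC1, a transporter of conjugates, was lower in all but Δ133p53α1 (-0.93 to -0.81, adjusted p 0.0109 to 0.043). SAT1, a polyamine acetyltransferase, was higher in all but Δ133p53α1 (0.80 to 1.55, adjusted p 0.000126 to 0.0265) and was 0.54 log2 units higher in Δ133p53β than in Δ133p53α (adjusted p = 0.0241). Median log2 fold changes of the 3 lists lay between -0.11 and 0.11 in every comparison.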

How the data were processed

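Poly(A) RNA of 24 libraries was sequenced with a strand-specific kit. Per the labels and the study's methods, the authors used Cutadapt for trimming, HISAT2 for alignment against GRCh38 and featureCounts for summing exon reads by gene, and deposited raw counts that were not normalized. Whether the counting used strand is not given in the sources used here. The 1 row without a gene name held 0 reads and was left out. A check of the labels is not reported here.

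The members and gene lists were chosen with earlier results of these data known. Counts were tested with edgeR 4.0.16 (R 4.3.3; TMM scaling, filterByExpr, quasi-likelihood test, Benjamini-Hochberg adjustment over the 18295 tested genes of each comparison) in 1 fit of all 24 libraries with 17 residual degrees of freedom. The isoform contrast weighted lines equally. Values in every library are given for members that passed both thresholds in any comparison or the adjusted p between isoforms, and for a list of 13 that includes TFRC, FTH1, FTL, GPX4 and NFE2L2; other named members were chosen after their values were seen. CPM used TMM-scaled library sizes. Gene lengths and positions were from GENCODE v44, which gave a length for 98.6% of tested genes. Library sets were formed from the sign of the rank correlation, across genes, of a library's deviation from the mean of all libraries with gene length. The test was checked on simulated counts drawn without a difference between the library sets, so the check does not cover that difference. No 2 libraries of a line agreed within sampling noise (lowest chi-square per degree of freedom 15.8 over 33 pairs). Alternatives were RLE scaling, DESeq2 1.42.0, limma 3.58.1 voom, other filters, other places for the library of unsettled line, a replicate block, the library set as a term, pairwise fits and leaving out each library. Fits within each library set, and the comparison of each library with the reference libraries of its own set, were chosen after seeing the data.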

Additional observations from a re-analysis of the deposited data

Results flagged for a closer look

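In 9 of 79 sets of 4 libraries, the highest or lowest value of a member stood far from the other three, where chance gives about 1 in 20; in 6 of them it was the only library of its line in its library set. In the positive set, NQO1 was at 361 CPM in Δ133p53α1 replicate 1 (others 673 to 708). In the negative set, Δ133p53α2 replicate 1 stood apart with FTL at 5550 CPM (others 1350 to 1920), GPX4 at 484 (105 to 147), AIFM2 at 83.6 (41.2 to 48.2) and ACSL4 at 23.9 (73.0 to 79.5), and Δ133p53α8 replicate 2 with GPX4 at 300 CPM (106 to 135). The remaining ones were KEAP1 at 50.1 CPM in control replicate 3 (79.0 to 80.5) and AKR1C3 at 0.217 CPM in Δ133p53α1 replicate 4 and 0.043 CPM in Δ133p53α2 replicate 2, where the other libraries had 0.

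On the test of the difference between the isoforms 2 of 38 members were called, beside 863 of all 18295 tested genes, which is near the same share. They were ME1, with a log2 difference of 0.76 between Δ133p53β and Δ133p53α, and AKR1C3, with 3.89. That test measures spread within lines, and 3 against 2 clones allow no exact p below 0.1. AKR1C3 entered the tests only through the Δ133p53β libraries, with 0 reads in the controls and 0 to 4 in Δ133p53α, so it had to differ, and its fitted value depends on the prior count and is no measure of size.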

How the results depend on the processing

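Member counts at an adjusted p under 0.05 were 8 in line α1, 0 in α2 and α8, 1 in β5, 4 in β10 and 2 between the isoforms. Of all 18295 tested genes, 891, 971, 819, 1460, 1797 and 863 were called in α1, α2, α8, β5, β10 and between the isoforms. Calls over all genes at the adjusted p are given in brackets below. Under RLE scaling Δ133p53α8 gave 1 and Δ133p53β5 gave 2 (all genes: 818 and 1476). DESeq2 gave 3 in Δ133p53α2, 2 in Δ133p53α8 (1 with the fold change threshold) and 3 in Δ133p53β5 (all genes: 1425, 1304 and 2125). Voom gave 1 in Δ133p53α8, 2 in Δ133p53β5 (all genes: 891 and 1492) and, with the fold change threshold, 1 in Δ133p53β10. A minimum mean of 1 CPM gave 1 in Δ133p53α2, 1 in Δ133p53α8 and 1 between the isoforms (719, 611 and 684 of all 14943 genes tested there). With the fold change threshold it gave 0 in Δ133p53β5, 1 in Δ133p53β10 and 0 between the isoforms, as it removed AKR1C3. Counting the library of unsettled line in Δ133p53β5 gave 2 there (1713 of all 17990 genes tested). Pairwise fits gave 5 in Δ133p53α1, 4 in Δ133p53β5 and 0 in Δ133p53β10 (all genes: 417, 1400 and 499), and with the fold change threshold 0 in each Δ133p53β line. The library set as a term gave 5 in Δ133p53α2, 4 in Δ133p53α8, 4 in Δ133p53β5 and 5 between the isoforms (all genes: 2230, 1898, 3199 and 2107). With the fold change threshold it gave 1 in Δ133p53α8 and 1 in Δ133p53β10.

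The replicate block gave 4 in Δ133p53α1, 2 in Δ133p53β10 (all genes: 605 and 1343) and, with the fold change threshold, 1 in each. Replicate numbers did not pair the libraries: deviations of same-numbered libraries correlated at -0.04 on average (-0.88 to 0.889 over 55 pairs), those of other numbers at 0.01. Fits of the positive-set libraries alone had 6 residual degrees of freedom and 1 library each in Δ133p53α1, Δ133p53β5 and Δ133p53β10. Fits of the negative-set libraries alone had 5 and 1 library each in the control, Δ133p53α2 and Δ133p53α8. A group of 1 library adds nothing to the estimate of the spread, so member counts of these 2 fits are not given.

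Leaving out 1 library gave 3 to 15 in Δ133p53α1 (1 to 7 with the fold change threshold), 0 to 2 in Δ133p53α2, 0 to 1 in Δ133p53α8, 1 to 3 in Δ133p53β5 and 2 to 9 in Δ133p53β10 (1 to 3). The other counts did not move. No count over all genes is given for these fits. For the 22 members fitted under each alternative, no log2 fold change that passed the threshold, as reported or under the alternative, changed direction between them. Another scaling moved the median of all genes by at most 0.014 log2 units. Reads limit SLC40A1 and the AKR1C genes, and 3 against 2 clones limit what is said of the isoforms.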
